A study of Arabidopsis thaliana with 30 samples.

Results

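The 47 genes described here make, regulate, move and hydrolyse glucosinolates in shoots of Arabidopsis thaliana. They were taken by known function, with earlier results of these data known, out of 27417 genes in the count table, as 27 genes of the aliphatic branch, 11 genes of the indole branch and 9 genes that serve both. All 47 were found, and 46 passed the filter on low counts. The exception was AOP3 (AT4G03050), a dioxygenase of the aliphatic side chain, with counts of 6, 1, 5 and 1 in 4 libraries and 0 in the other libraries.

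The plants were accession Col-0. Pots stood in 10 mM ethanol for 3 days (ethanol arm) or in water for the same time (water arm), watering then stopped, and shoots of each arm were cut on the day watering stopped (0 days after drought onset, DAD) and on days 1, 3, 5 and 7. The 10 arm-by-day groups hold 3 RNA-seq libraries each, and the 0 DAD groups had the pretreatment but no drought. Col-0 carries a nonfunctional AOP2, annotated as a pseudogene, so the alkenyl glucosinolates of some other accessions are not made in it. Whole shoots were sampled, so that fewer cells of a type and less RNA per cell cannot be told apart. Nothing in the labels says that the 3 libraries of a group came from separate plants, and the p-values measure only the spread between these libraries.

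Glucosinolates are sulfur-rich thioglucosides of the cabbage order, which myrosinases cut into isothiocyanates, nitriles and related defence compounds when tissue is damaged. The aliphatic branch lengthens methionine in the plastid, builds the core structure through CYP79F and CYP83A1 enzymes and then modifies the side chain. The indole branch starts from tryptophan and uses CYP79B2, CYP79B3 and CYP83B1. The transcription factors MYB28, MYB29 and MYB76 activate the aliphatic branch, and MYB34, MYB51 and MYB122 the indole branch, together with MYC proteins that bind the G-box.

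The sequences upstream of the gene starts are shown because the regulators of both branches are DNA-binding MYB and MYC proteins. The window was the 250 bases before the annotated gene start in the RefSeq annotation of assembly TAIR10.1. It was searched on both strands for the G-box (CACGTG) and for MYB AC elements (ACCTAAC or its variants ACCAACC and ACCTACC, and also ACCAAAC), which do not overlap each other in letters. An AC element was found in 8 of 27 aliphatic windows (29.6%), 1 of 11 indole windows (9.09%) and 2 of 9 shared windows (22.2%), against 13.7% of the windows of 27443 protein-coding genes. A G-box was found in 2 of 27 aliphatic windows (7.41%), in 0 of 11 indole windows and in 1 of 9 shared windows (11.1%), against 6.49% of all windows. Of 3 further motifs, the core of the abscisic acid response element (ACGTG, part of every G-box) was found in 40.7% of aliphatic, 45.5% of indole and 33.3% of shared windows, against 22.9% of all windows. The W-box core (TTGAC) was in 33.3%, 36.4% and 44.4% of them, against 44.9%, and the dehydration-responsive element core (CCGAC) in 3.7%, 0% and 0%, against 12%. The 1 indole window with an AC element is that of SOT16, the sulfotransferase of the indole branch. Below, capitals mark these 2 motifs in the windows of 2 aliphatic genes (the sulfotransferase SOT17 and the oxidase CYP83A1), of SUR1 (the C-S lyase of both branches) and of CYP79B2 (the indole entry enzyme, with neither motif), all read 5′ to 3′ toward the gene, so that an AC element on the other strand appears as its reverse complement.
SOT17, chr1:6398281-6398530 on the plus strand: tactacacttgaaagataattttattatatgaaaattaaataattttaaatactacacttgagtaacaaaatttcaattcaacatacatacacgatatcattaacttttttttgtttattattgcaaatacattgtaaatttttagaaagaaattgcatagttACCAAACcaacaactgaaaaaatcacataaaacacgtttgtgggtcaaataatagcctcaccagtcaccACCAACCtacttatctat
CYP83A1, chr4:7992430-7992679 on the minus strand: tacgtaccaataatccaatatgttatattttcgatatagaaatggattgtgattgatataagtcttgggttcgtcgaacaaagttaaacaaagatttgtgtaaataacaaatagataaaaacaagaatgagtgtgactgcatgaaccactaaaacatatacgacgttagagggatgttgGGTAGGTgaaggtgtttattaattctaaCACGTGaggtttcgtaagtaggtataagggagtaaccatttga
SUR1, chr2:8880441-8880690 on the minus strand: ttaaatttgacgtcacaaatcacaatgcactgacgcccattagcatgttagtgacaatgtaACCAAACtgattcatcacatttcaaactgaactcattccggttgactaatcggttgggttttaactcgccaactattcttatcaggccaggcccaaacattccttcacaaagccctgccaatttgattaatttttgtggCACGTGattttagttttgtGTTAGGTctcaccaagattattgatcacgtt
CYP79B2, chr4:18524792-18525041 on the plus strand: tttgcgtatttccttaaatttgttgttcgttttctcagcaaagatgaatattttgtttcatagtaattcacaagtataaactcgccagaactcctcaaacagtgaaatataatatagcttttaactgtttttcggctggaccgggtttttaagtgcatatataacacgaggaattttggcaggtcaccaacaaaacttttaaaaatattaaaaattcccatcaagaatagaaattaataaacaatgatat
A match to such letters is a description of the window and shows no binding site.

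Library totals ran from 3625884 to 14735127 counts, and ethanol 0 DAD replicates 1 and 2 were the smallest. Levels are given as CPM, the count relative to the scaled library total, and they compare 1 gene between libraries, not genes with each other. Log2 fold changes and adjusted p-values are those of edgeR's quasi-likelihood test with Benjamini-Hochberg adjustment over 19249 genes, with the standard error (SE) of the fold change, and a gene was called at an adjusted p under 0.1. The label of the tissue was checked with 5 photosynthesis genes, whose summed level was 28880 to 67630 CPM in all groups but water 7 DAD, where it was 4359 to 7426 CPM. Root markers summed to at most 6.118 CPM in any library. The summed level of 5 drought-inducible genes was 605.1 to 3457 CPM in ethanol 7 DAD libraries, against 44010 to 58200 CPM in water 7 DAD libraries. At 5 DAD it was 558.9 to 920.2 CPM in ethanol libraries and 671 to 1779 CPM in water libraries. The water 5 DAD libraries were uneven, with RAB18, 1 of these 5 genes, at 757, 857 and 158 CPM in replicates 1, 2 and 3. Guard cell markers summed to 28.62 to 46.05 CPM in ethanol 7 DAD libraries, against 15.47 to 17.67 CPM in water 7 DAD libraries, and floral markers to 180.2 to 227 CPM against 66.52 to 159.1 CPM. Evening clock genes also differed between days, from a summed 37.42 CPM in the lowest water 1 DAD library to 355.5 CPM in the highest ethanol 3 DAD library. They differed between the arms as well, without overlap at 0 and 7 DAD, whereas the arms overlapped at 1, 3 and 5 DAD. At 0 DAD they summed to 135 to 169.9 CPM in ethanol libraries, against 87.27 to 102.2 CPM in water libraries. At 7 DAD they summed to 55.66 to 66.65 CPM in ethanol libraries, against 96.57 to 148.8 CPM in water libraries. The part of these marker differences in the results below was not tested.

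The 2 branches ran differently through the drought. The mean log2 CPM of the 26 tested aliphatic genes was 4.74 ± 0.09 at 0 DAD, 5.92 ± 0.06 at 1 DAD, 5.89 ± 0.09 at 3 DAD, 6.11 ± 0.14 at 5 DAD and 5.71 ± 0.21 at 7 DAD in the ethanol arm (SD, n = 3 each). In the water arm it was 5.32 ± 0.15, 6.04 ± 0.08, 5.79 ± 0.08, 6.16 ± 0.11 and 3.21 ± 0.32 on the same days. The 11 indole genes had a mean log2 CPM of 5.52 ± 0.40, 5.2 ± 0.21, 5.2 ± 0.25, 4.67 ± 0.33 and 4.19 ± 0.16 in the ethanol arm, and of 5.74 ± 0.28, 5.15 ± 0.25, 4.81 ± 0.06, 4.53 ± 0.25 and 2.71 ± 0.10 in the water arm. The aliphatic mean was thus higher at 5 DAD than at 0 DAD in every library of both arms, and the indole mean lower. Both means lay lowest in the 3 water 7 DAD libraries, with no overlap with any other library. The 9 shared genes had 6.95 ± 0.15 in ethanol 7 DAD libraries, against 5.68 ± 0.15 in water 7 DAD libraries.

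**Figure D1:**
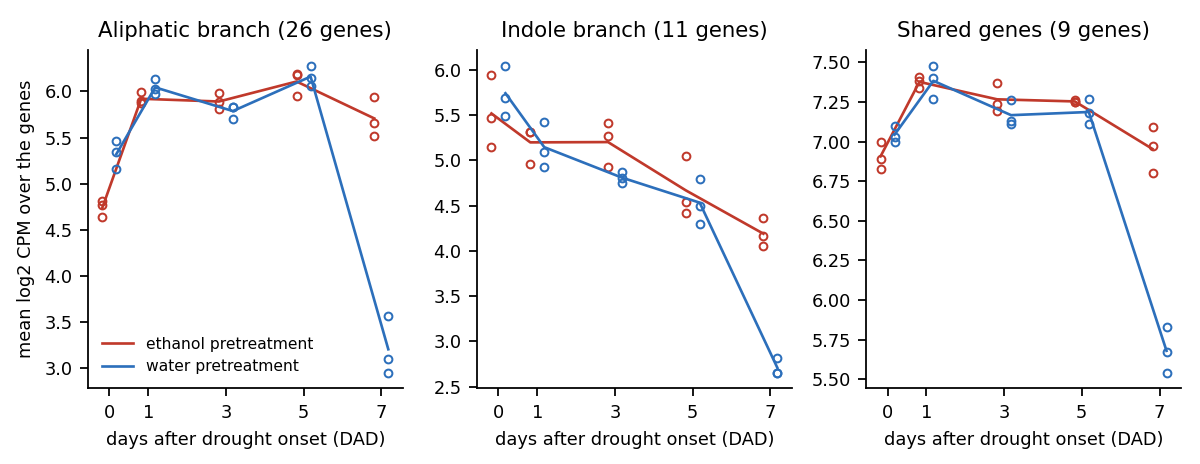
Mean log2 CPM over the tested genes of the aliphatic branch, the indole branch and the shared steps (vertical axes) against days after drought onset; each circle is 1 library, lines join the group means, red is the ethanol arm and blue the water arm. At 7 DAD the aliphatic mean was 5.71 in the ethanol arm and 3.21 in the water arm, and the indole mean was 4.19 and 2.71.

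The largest contrast between the arms was at 7 DAD. Of the 46 tested genes, 38 were higher and 3 lower in ethanol than in water, against 60.5% of all genes called in either direction (32% higher and 28.6% lower). In 37 of the 46 genes all 3 ethanol libraries lay above all 3 water libraries, against 30.5% of all genes. The aliphatic branch had 23 genes higher and 1 lower out of 26, with a median log2 fold change of 3.33. The indole branch had 8 higher and 1 lower out of 11, with a median of 1.75, and the shared genes 7 higher and 1 lower out of 9, with a median of 0.80, beside a median of 0.05 over all genes.

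**Figure D2:**
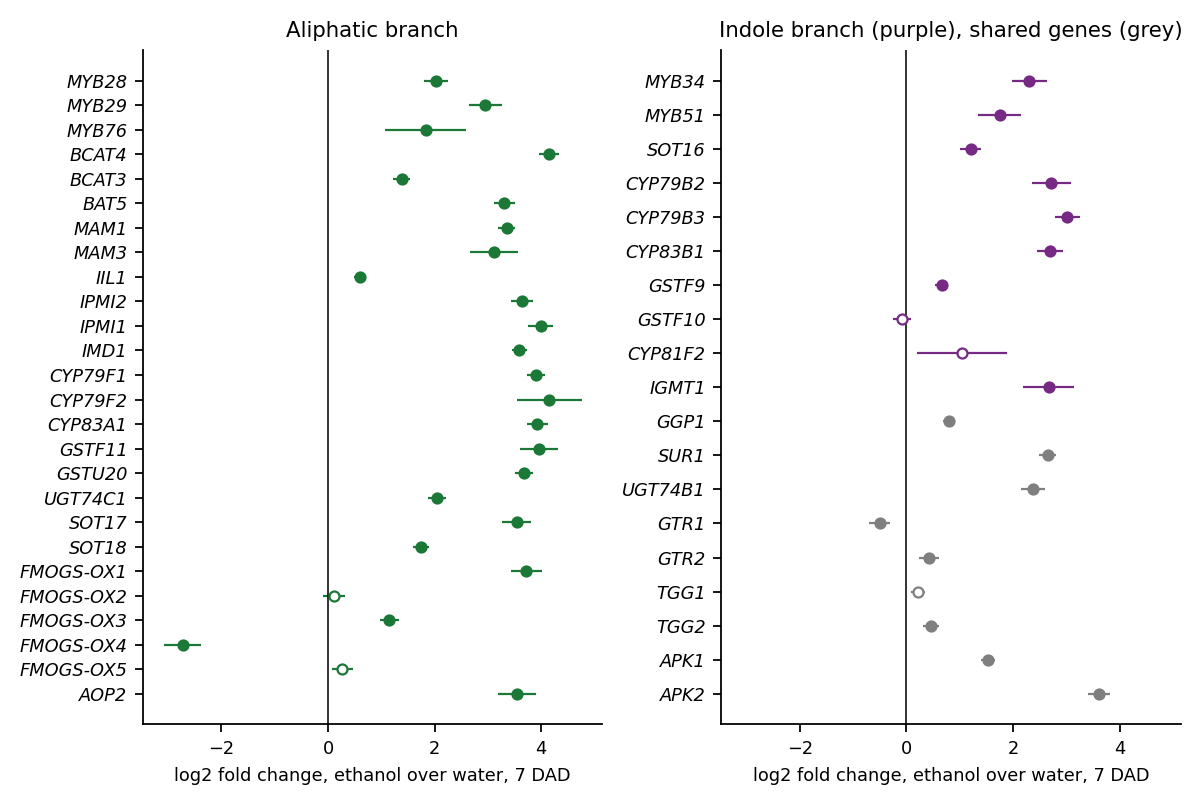
Log2 fold change of ethanol over water at 7 DAD for 45 genes (horizontal axis), with bars of 1 SE; filled points passed the adjusted p of 0.1 and open points did not, green is the aliphatic branch, purple the indole branch and grey the shared genes. MYB122, whose counts were 0 in all ethanol libraries, is left out. Most points lie to the right of 0, FMOGS-OX4 lies far to the left at -2.73, and the transporters and myrosinases lie close to 0.

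Among the aliphatic regulators, MYB28 (AT5G61420), the main activator of the branch, had 63.6, 41.3 and 73.6 CPM in ethanol 7 DAD libraries, against 18.5, 14.0 and 11.3 CPM in water 7 DAD libraries (log2 fold change 2.03, SE 0.223). MYB29 (AT5G07690), its close relative, had 27.2, 23.2 and 41.6 CPM with ethanol, against 5.16, 1.59 and 4.79 CPM with water (2.95, SE 0.311). The arms did not overlap for either gene, and the lowest ethanol library of MYB28 was more than 2 times the highest water library. MYB76 (AT5G07700), the third activator, was near the counting limit, with 0.867, 2.24 and 1.12 CPM against 0.720, 0.319 and 0.114 CPM, from 8, 20 and 13 counts against 6, 2 and 1 counts (1.83, SE 0.762, adjusted p = 0.0432 by edgeR's quasi-likelihood test). The call of MYB76 was lost when ethanol 7 DAD replicate 2 or water 7 DAD replicate 3 was left out (1.37 in both fits).

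Genes of the methionine chain elongation cycle were higher in ethanol in 9 of 9 cases, against 32% of all genes called higher, with log2 fold changes of 0.60 to 4.15. BCAT4 (AT3G19710), the aminotransferase that starts the cycle, had 234, 228 and 269 CPM in ethanol 7 DAD libraries, against 19.2, 12.0 and 9.69 CPM in water 7 DAD libraries, a 17.8-fold difference (4.15, SE 0.183). BAT5 (AT4G12030), which carries the 2-oxo acid into the plastid, had 52.4, 38.5 and 56.0 CPM against 4.80, 4.79 and 5.13 CPM (3.31, SE 0.191). MAM1 (AT5G23010), the condensing enzyme for short chains, had 238, 237 and 258 CPM against 31.6, 21.7 and 18.5 CPM (3.35, SE 0.165). In these 3 genes every ethanol library was several-fold above every water library. MAM3 (AT5G23020), the condensing enzyme that also makes long chains, had 12.0, 5.05 and 16.7 CPM against 2.16, 1.59 and 0.228 CPM (3.12, SE 0.448). IMD1 (AT5G14200), the dehydrogenase of the cycle, had 149, 114 and 185 CPM against 13.9, 12.0 and 11.3 CPM (3.59, SE 0.146). The small isomerase subunit IPMI1 (AT3G58990) was at 59.5 to 121 CPM against 3.99 to 7.80 CPM (3.99), and its relative IPMI2 (AT2G43100) at 88.5 to 104 CPM against 5.13 to 12.2 CPM (3.64). BCAT3 (AT3G49680), which closes the cycle and also serves branched-chain amino acids, was at 60.1 to 90.4 CPM against 22.9 to 34.4 CPM (1.38). The large isomerase subunit IIL1 (AT4G13430), shared with leucine synthesis, was at 169 to 199 CPM against 115 to 129 CPM (0.60). These 2 members, with a role in amino acid synthesis as well, had the smallest differences of the 9, and their adjusted p-values were 1.4e-08 and 3.15e-05 by edgeR.

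The aliphatic core enzymes were higher in ethanol in 8 of 8 cases, against 32% of all genes called higher. CYP79F1 (AT1G16410), which turns elongated methionine into an aldoxime, had 221, 156 and 251 CPM in ethanol 7 DAD libraries, against 17.8, 12.8 and 11.4 CPM in water 7 DAD libraries (3.90, SE 0.170). Its neighbour CYP79F2 (AT1G16400), specific for long chains, had 4.12, 1.79 and 5.95 CPM against 0.360, 0 and 0.228 CPM, the water values resting on 3, 0 and 2 counts (4.15, SE 0.608). CYP83A1 (AT4G13770), the next oxidase, had 283, 218 and 346 CPM against 27.1, 16.1 and 12.1 CPM (3.93, SE 0.189). None of these overlapped between the arms. CYP79F1 and CYP79F2 lie side by side and share 1 identical run of 100 bases, so little of their counts could be exchanged.

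UGT74C1 (AT2G31790), a glucosyltransferase of the branch, had 55.3, 43.8 and 71.0 CPM in ethanol 7 DAD libraries, against 13.9, 11.3 and 15.7 CPM in water 7 DAD libraries (2.05, SE 0.165). SOT17 (AT1G18590), a sulfotransferase of the last core step, had 35.9, 34.7 and 59.7 CPM against 4.92, 4.63 and 1.82 CPM (3.54, SE 0.267). SOT18 (AT1G74090), the other aliphatic sulfotransferase, had 63.6, 45.6 and 57.2 CPM against 18.4, 16.3 and 15.2 CPM (1.74, SE 0.154). The arms did not overlap in any of the 3. The glutathione transferase GSTF11 (AT3G03190) was at 14.5 to 21.1 CPM against 0.479 to 1.56 CPM (3.96), and GSTU20 (AT1G78370), of the same enzyme class, at 397 to 486 CPM against 25.5 to 45.2 CPM (3.68).

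Side chain enzymes were the one aliphatic group with mixed behaviour. FMOGS-OX1 (AT1G65860), which oxidises methylthioalkyl to methylsulfinylalkyl glucosinolates, had 33.5, 21.1 and 29.2 CPM in ethanol 7 DAD libraries, against 3.48, 2.07 and 0.798 CPM in water 7 DAD libraries (3.72, SE 0.295). FMOGS-OX3 (AT1G62560), of the same family, had 36.7, 39.4 and 50.7 CPM against 16.4, 24.4 and 16.9 CPM (1.15, SE 0.181). Both were higher in ethanol without overlap. FMOGS-OX4 (AT1G62570) went the other way, with 36.8, 133 and 51.3 CPM in ethanol 7 DAD libraries, against 550, 406 and 512 CPM in water 7 DAD libraries (-2.73, SE 0.351, adjusted p = 1.34e-07 by edgeR). Ethanol replicate 2 stood above the other two, and the log2 fold change was -3.45 without it. The same library had the highest summed level of the drought-inducible genes in its group, 3457 CPM beside 605.1 and 637.3 CPM, and the part of this in the FMOGS-OX4 values was not tested. Without this library 39 members were called between the arms at 7 DAD, beside 41 with it. FMOGS-OX2 (AT1G62540) was at 25.2 to 47.4 CPM against 26.6 to 42.8 CPM (0.11, adjusted p = 0.691), and FMOGS-OX5 (AT1G12140) at 21.6 to 32.3 CPM against 19.7 to 27.4 CPM (0.27, adjusted p = 0.234), both by edgeR and neither called. FMOGS-OX5 shares 26.7% of its runs of 100 bases with AT1G04933, a gene annotated over it on the same strand, so its reads could be counted for both. AOP2 (AT4G03060) transcripts had 22.8, 12.0 and 40.4 CPM with ethanol against 1.80, 2.71 and 2.05 CPM with water (3.54, SE 0.357).

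In the indole branch, MYB34 (AT5G60890), an activator of the branch, had 5.85, 8.42 and 11.8 CPM in ethanol 7 DAD libraries, against 1.92, 1.75 and 1.60 CPM in water 7 DAD libraries (2.31, SE 0.328). MYB51 (AT1G18570), the activator known for defence-related indole synthesis, had 13.4, 9.54 and 13.4 CPM against 4.56, 2.71 and 3.42 CPM (1.75, SE 0.404). Neither overlapped between the arms. MYB122 (AT1G74080), the third activator, had 0 counts in all 3 ethanol libraries, against 2, 0 and 5 counts in the water libraries, at or close to the floor of 3 counts, so no fold is given. Its call (adjusted p = 0.0664 by edgeR) was not kept in 4 of 6 fits that left out 1 library.

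The first 3 enzymes of the indole branch were higher in ethanol. CYP79B2 (AT4G39950) had 17.4, 22.2 and 27.3 CPM in ethanol 7 DAD libraries, against 3.00, 4.95 and 2.51 CPM in water 7 DAD libraries (2.72, SE 0.367). Its duplicate CYP79B3 (AT2G22330) had 18.7, 20.9 and 23.3 CPM against 3.24, 1.59 and 2.74 CPM (3.02, SE 0.239). CYP83B1 (AT4G31500), which channels the aldoxime into glucosinolates, had 84.8, 52.7 and 91.1 CPM against 13.0, 10.2 and 12.1 CPM (2.69, SE 0.247). All 3 were separated between the arms by several-fold. SOT16 (AT1G74100), the indole sulfotransferase, had 55.0, 49.7 and 52.0 CPM against 22.2, 25.4 and 20.4 CPM (1.21, SE 0.200). The glutathione transferase GSTF9 (AT2G30860) was at 1108 to 1398 CPM against 704 to 867 CPM (0.66), and GSTF10 (AT2G30870) at 139 to 226 CPM against 153 to 198 CPM, with overlap (-0.08, adjusted p = 0.719 by edgeR).

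The 2 genes that modify the indole ring were low at 7 DAD. CYP81F2 (AT5G57220), the hydroxylase of the ring, had 1.08, 0.673 and 1.47 CPM in ethanol 7 DAD libraries, against 0.720, 0.957 and 0 CPM in water 7 DAD libraries, which overlap (1.05, SE 0.842, adjusted p = 0.30 by edgeR). IGMT1 (AT1G21100), the methyltransferase that acts after it, had 9.97, 3.81 and 6.81 CPM against 0.6, 0.957 and 1.60 CPM and did not overlap (2.67, SE 0.481). IGMT1 shares 2.06% of its runs of 100 bases with the neighbouring gene IGMT4, and its reads there cannot be assigned to 1 of them.

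Of the shared core enzymes, GGP1 (AT4G30530), the gamma-glutamyl peptidase, had 263, 231 and 242 CPM in ethanol 7 DAD libraries, against 137, 146 and 138 CPM in water 7 DAD libraries (0.80, SE 0.115). SUR1 (AT2G20610), the C-S lyase, had 97.2, 76.8 and 103 CPM against 20.1, 12.8 and 11.1 CPM (2.65, SE 0.163). UGT74B1 (AT1G24100), a glucosyltransferase, had 44.3, 35.9 and 52.8 CPM against 10.3, 8.61 and 6.61 CPM (2.38, SE 0.220). The arms did not overlap in any of these. APK1 (AT2G14750) and APK2 (AT4G39940) are the plastid kinases that make the sulfate donor of the sulfotransferases. APK1 had 116, 99.0 and 129 CPM against 43.7, 42.4 and 33.4 CPM (1.53, SE 0.137), and APK2 had 48.8, 57.2 and 62.9 CPM against 6.6, 3.67 and 3.42 CPM (3.61, SE 0.205).

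The transporters GTR1 and GTR2 and the myrosinases TGG1 and TGG2 had log2 fold changes between -0.50 and 0.47. Of these 4 genes 3 were called, against 60.5% of all genes. GTR1 (AT3G47960), a plasma membrane glucosinolate importer, had 72.6, 52.4 and 58.5 CPM in ethanol 7 DAD libraries, against 71.3, 105 and 82.8 CPM in water 7 DAD libraries, which overlap (-0.50, SE 0.192, adjusted p = 0.0295 by edgeR). GTR2 (AT5G62680), which acts with GTR1 in loading the phloem, had 70.8, 37.7 and 61.6 CPM against 41.9, 41.5 and 42.9 CPM, also with overlap (0.43, SE 0.188, adjusted p = 0.0541). Without water 7 DAD replicate 2 the value of GTR1 was -0.32, and without ethanol 7 DAD replicate 1 that of GTR2 was 0.26, and neither was called in those fits. TGG1 (AT5G26000), the main myrosinase of shoots, found in guard cells and myrosin cells, had 486, 611 and 706 CPM with ethanol against 532, 502 and 514 CPM with water (0.22, SE 0.138, adjusted p = 0.183). TGG2 (AT5G25980), the second shoot myrosinase, had 481, 596 and 598 CPM against 429, 365 and 413 CPM (0.47, SE 0.15, adjusted p = 0.00881), with no overlap. The guard cell markers, which were lower in water, are given above, and their part in the values of TGG1 and TGG2 was not tested.

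The course of drought within each arm answers when these differences arose. In ethanol, 30 of 46 genes were called at 1 DAD against 0 DAD (28 higher and 2 lower), against 18.3% of all genes. At 3 DAD there were 30 (25 higher and 5 lower, against 24.6%), at 5 DAD 33 (26 higher and 7 lower, against 33.3%) and at 7 DAD 31 (21 higher and 10 lower, against 41.5%). In water, 25 genes were called at 1 DAD against 0 DAD (21 higher and 4 lower), against 12.9% of all genes. At 3 DAD there were 25 (18 higher and 7 lower, against 19.6%), at 5 DAD 31 (22 higher and 9 lower, against 33%) and at 7 DAD 40 (2 higher and 38 lower, against 70%, with 35.5% lower). The median log2 fold change of the aliphatic genes over 0 DAD was 1.33, 1.24, 1.54 and 0.99 in ethanol on days 1, 3, 5 and 7, and 0.79, 0.52, 0.82 and -2.91 in water. That of the indole genes was -0.40, -0.49, -1 and -1.18 in ethanol, and -0.24, -0.42, -0.59 and -3.69 in water. The medians of all genes stayed between -0.013 and 0.025 in these comparisons.

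**Figure D3:**
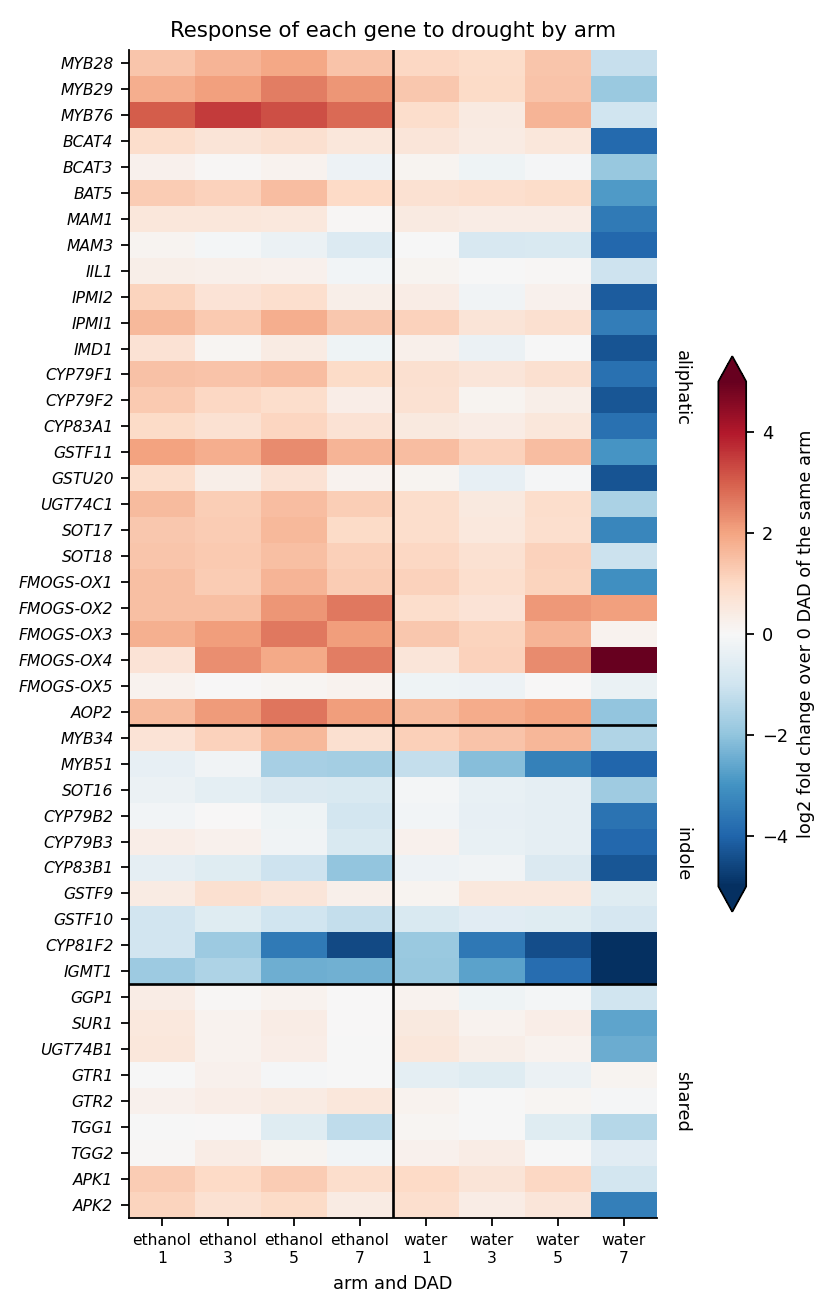
Log2 fold change over 0 DAD of the same arm for 45 genes (rows, grouped by branch) on days 1, 3, 5 and 7 of drought, with the ethanol arm on the left and the water arm on the right; red is higher and blue lower than at 0 DAD, and the colour scale ends at 5 in either direction. Of the 26 aliphatic genes, 26, 25, 25 and 22 lie above 0 on days 1, 3, 5 and 7 in the ethanol arm and 24, 19, 22 and 3 in the water arm, where FMOGS-OX4 reaches 5.28 on day 7.

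Aliphatic genes rose on the first day of drought in both arms. CYP79F1 had 302, 271 and 310 CPM in ethanol 1 DAD libraries, against 110, 110 and 103 CPM in ethanol 0 DAD libraries. In water it had 368, 312 and 305 CPM at 1 DAD, against 168, 203 and 190 CPM at 0 DAD. The libraries of the 2 days did not overlap in either arm, and the log2 fold changes were 1.46 in ethanol and 0.81 in water. At 5 DAD CYP79F1 had 309, 284 and 347 CPM in ethanol and 349, 340 and 284 CPM in water. At 7 DAD against 5 DAD its log2 fold change was -0.58 in ethanol and -4.53 in water, both called. AOP2 transcripts rose further, by log2 fold changes of 2.68 in ethanol and 2.03 in water at 5 DAD against 0 DAD, and MYB28 by 1.95 and 1.38.

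Not every aliphatic gene took part in the early rise. MAM3 fell in water at 5 DAD against 0 DAD (-0.78), and GSTU20 fell in water at 3 DAD (-0.41). IMD1, IIL1 and BCAT3 were not called at 1, 3 or 5 DAD in water. At 7 DAD against 0 DAD, 17 of 26 aliphatic genes were higher and 0 lower in ethanol, against 41.5% of all genes called. In water 2 of them were higher and 21 lower, against 70% of all genes called (35.5% lower). The 9 chain elongation genes had a median of 0.05 in ethanol, with 3 called, all higher, beside the same 41.5%. In water their median was -3.54, with 9 called, all lower, beside the same 70%.

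The 2 aliphatic genes that were higher at 7 DAD than at 0 DAD within the water arm were FMOGS-OX4 and FMOGS-OX2, both of the S-oxygenase family. In ethanol, FMOGS-OX4 had 9.29, 15.3 and 12.5 CPM at 0 DAD, 20.1, 17.0 and 22.4 CPM at 1 DAD, 51.1, 70.2 and 64.2 CPM at 3 DAD, 47.3, 27.5 and 61.2 CPM at 5 DAD and 36.8, 133 and 51.3 CPM at 7 DAD. In water it had 18.4, 10.5 and 8.32 CPM at 0 DAD, 15.5, 18.9 and 22.2 CPM at 1 DAD, 23.1, 37.4 and 22.1 CPM at 3 DAD, 84.4, 67.8 and 40.7 CPM at 5 DAD and 550, 406 and 512 CPM at 7 DAD. The gene thus rose in both arms, by 2.57 in ethanol and 5.28 in water at 7 DAD against 0 DAD, and the water 7 DAD libraries stood above all others. The ethanol 7 DAD libraries other than replicate 2 also lay above every ethanol 0 DAD library. FMOGS-OX2 rose by 2.62 in ethanol and 2.04 in water. FMOGS-OX1 and FMOGS-OX3, their relatives, rose by 1.28 and 2.08 in ethanol. In water FMOGS-OX1 fell by 3.06, and FMOGS-OX3 had 0.17 and was not called.

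**Figure D4:**
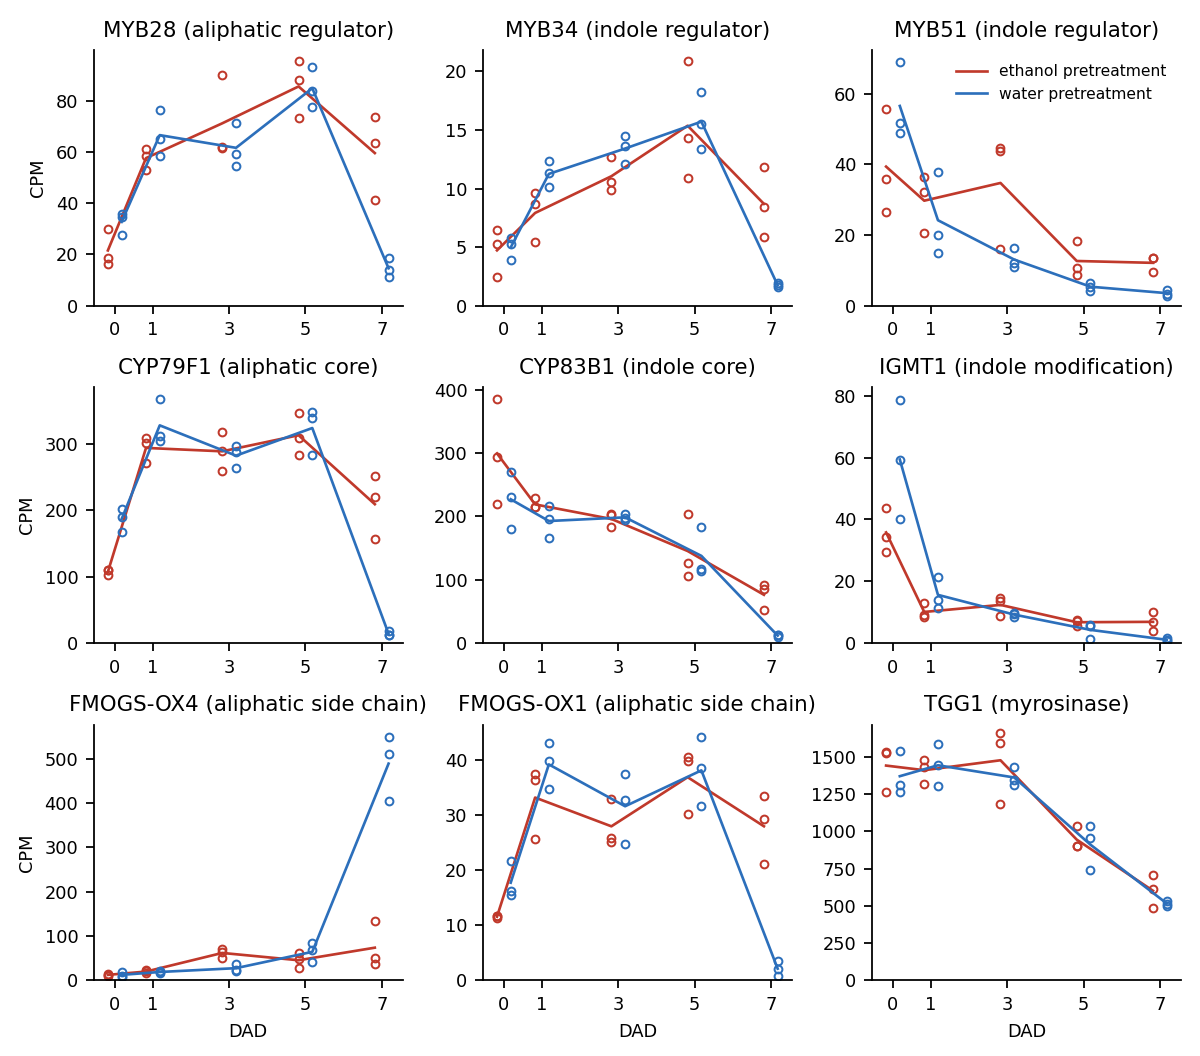
CPM of 9 genes (vertical axes, each from 0) against days after drought onset; each circle is 1 library, lines join the group means, red is the ethanol arm and blue the water arm. The means of CYP79F1, FMOGS-OX1 and MYB28 lie above those at 0 DAD on days 1, 3 and 5 in both arms and below them at 7 DAD in the water arm, FMOGS-OX4 reaches 406 to 550 CPM there, and the means of MYB51, CYP83B1 and IGMT1 lie below those at 0 DAD on every later day in both arms.

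Of the 11 indole genes, 2 were higher and 6 lower at 5 DAD against 0 DAD in ethanol (33.3% of all genes called), and 2 were higher and 7 lower in water (33%). MYB34 rose in both arms, by 1.63 in ethanol and 1.65 in water at 5 DAD against 0 DAD. At 7 DAD against 0 DAD its log2 fold change was 0.82 in ethanol, where the libraries of the 2 days overlapped, and -1.50 in water. MYB51 had 10.8, 18.3 and 8.84 CPM at 5 DAD in ethanol, against 55.8, 26.6 and 35.7 CPM at 0 DAD (-1.65). In water MYB51 had 4.25, 6.52 and 5.39 CPM at 5 DAD, against 69.0, 51.6 and 49.0 CPM at 0 DAD (-3.39). In both arms all its libraries at 5 DAD lay below all those at 0 DAD. CYP81F2 had 0.816, 5.03 and 1.44 CPM at 5 DAD in ethanol, against 39.4, 17.9 and 19.8 CPM at 0 DAD (-3.54). In water CYP81F2 had 1.87, 1.14 and 2.98 CPM at 5 DAD, against 58.2, 35.4 and 37.8 CPM at 0 DAD (-4.44), again with no overlap between the days in either arm. IGMT1 fell by 2.43 in ethanol and 3.79 in water over the same days. MYB51, CYP81F2 and IGMT1 thus fell before 7 DAD. CYP83B1 fell by 1.05 in ethanol and 0.72 in water at 5 DAD, GSTF10 by 1 and 0.59, and SOT16 by 0.71 and 0.44, whereas GSTF9 rose by 0.60 and 0.51. CYP79B2 and CYP79B3 were at -0.23 and -0.16 in ethanol and at -0.44 and -0.46 in water at 5 DAD, with only CYP79B3 in water called. These enzymes and CYP83B1 fell in water between 5 and 7 DAD, by 3.25 for CYP79B2, 3.45 for CYP79B3 and 3.54 for CYP83B1.

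Of the 9 shared genes, 3 were higher and 1 lower at 7 DAD against 0 DAD in ethanol (41.5% of all genes called), and 0 were higher and 7 lower in water (70%). The sulfate donor kinase APK1 had 161, 139 and 153 CPM at 1 DAD in ethanol, against 62.9, 56.7 and 68.2 CPM at 0 DAD (1.27). In water APK1 was at 133 to 164 CPM at 1 DAD, against 62.3 to 83.8 CPM at 0 DAD (1.00). APK1 thus rose on the first day in both arms without overlap, as APK2 did (1.11 in ethanol and 0.83 in water). At 7 DAD against 0 DAD APK2 rose by 0.42 in ethanol and fell by 3.42 in water. SUR1 and UGT74B1 were at 0.01 and -0.03 in ethanol, not called, and fell by 2.65 and 2.48 in water. GTR2 rose in ethanol (0.57) and was at -0.05 in water, and GTR1 was at -0.03 and 0.13, not called in either arm. TGG1 fell by 1.26 in ethanol and 1.41 in water at 7 DAD against 0 DAD, and the difference of these responses was not called (0.15, SE 0.195, adjusted p = 0.575 by edgeR). TGG2 was at -0.15 in ethanol, not called, and fell by 0.57 in water.

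The change from 5 to 7 DAD was small in ethanol and large in water. In ethanol, 7 DAD against 5 DAD, 16 genes were called, all lower, against 8.5% of all genes (3.16% lower), with an aliphatic median of -0.44 and an indole median of -0.59. The count was 3 when ethanol 7 DAD replicate 2, the library with the highest drought-inducible level of its group, was left out, 5 when its replicate 1 or ethanol 5 DAD replicate 3 was, and 6 when ethanol 5 DAD replicate 1 was. In water, 40 genes were called (2 higher, 38 lower), against 64.5% of all genes (32.7% lower), and the aliphatic median was -3.84 and the indole median -1.92. Set against water 5 DAD, ethanol 7 DAD had 14 genes called (1 higher, 13 lower), against 7.01% of all genes, with aliphatic and indole medians of -0.45 and -0.47. The gene that was higher there was MYB51 (1.17), and the count was 8 when ethanol 7 DAD replicate 1 or water 5 DAD replicate 1 or 3 was left out. These comparisons share libraries with each other and with those above.

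The difference of the 7 DAD responses was tested itself, as the change over 0 DAD in ethanol minus that in water. It was called for 38 of 46 genes (37 positive, 1 negative), against 50.8% of all genes, with medians of 3.96 for the aliphatic, 2.28 for the indole and 1.03 for the shared genes, beside 0.08 over all genes. The highest values were those of IPMI1 (4.81, SE 0.31) and CYP79F1 (4.70, SE 0.224), and the 1 negative value was that of FMOGS-OX4 (-2.72, SE 0.526). FMOGS-OX2, FMOGS-OX5, MYB122, GSTF10, CYP81F2, GTR1, TGG1 and TGG2 were the 8 tested genes without a call.

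Before drought, at 0 DAD, 9 genes were lower and 0 higher in ethanol than in water, against 1.71% of all genes called (0.951% lower). All 9 were aliphatic, and the median log2 fold change was -0.54 over the aliphatic genes, -0.13 over the indole genes and -0.19 over the shared genes, with -0.02 over all genes. CYP79F1 had 110, 110 and 103 CPM in ethanol 0 DAD libraries, against 168, 203 and 190 CPM in water 0 DAD libraries (-0.80, SE 0.149, adjusted p = 0.00884 by edgeR). GSTU20 had 362, 439 and 330 CPM against 624, 730 and 628 CPM (-0.81, SE 0.152, adjusted p = 0.01). UGT74C1 had 23.5, 28.5 and 21.6 CPM against 43.8, 41.6 and 38.8 CPM (-0.77, SE 0.163, adjusted p = 0.0195). The arms did not overlap in these 3 genes, and their calls held whichever of the 6 libraries was left out. The evening clock genes, which summed higher in ethanol at 0 DAD, are given above, and their part in these values was not tested.

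MYB29 had 4.65, 3.69 and 9.84 CPM in ethanol 0 DAD libraries, against 9.61, 16.9 and 17.3 CPM in water 0 DAD libraries (-1.13, SE 0.312, adjusted p = 0.0809 by edgeR). Ethanol replicate 3 lay within the range of the water libraries. The isomerase subunits IPMI2, with 87.2, 82.3 and 75.0 CPM against 156, 152 and 115 CPM, and IPMI1, with 34.4, 38.2 and 35.6 CPM against 49.7, 78.1 and 62.8 CPM, did not overlap (-0.79 and -0.81). IMD1 had 182, 174 and 164 CPM against 237, 278 and 230 CPM (-0.52), SOT18 had 24.1, 24.3 and 24.1 CPM against 28.8, 43.3 and 33.5 CPM (-0.54), and FMOGS-OX3 had 10.9, 10.3 and 9.14 CPM against 16.0, 16.9 and 18.2 CPM (-0.77), again without overlap. With 1 library left out, the calls of SOT18, IPMI1 and FMOGS-OX3 were each lost in 5 of 6 fits. The call of MYB29 was lost in 4, and those of IPMI2 and IMD1 in 3 each. The count of 9 was 3 if replicate 2 of either arm at 0 DAD was dropped, 5 if replicate 1 or 3 of ethanol or replicate 3 of water was dropped, and 1 when only the deepest ethanol 0 DAD library was kept.

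**Figure D5:**
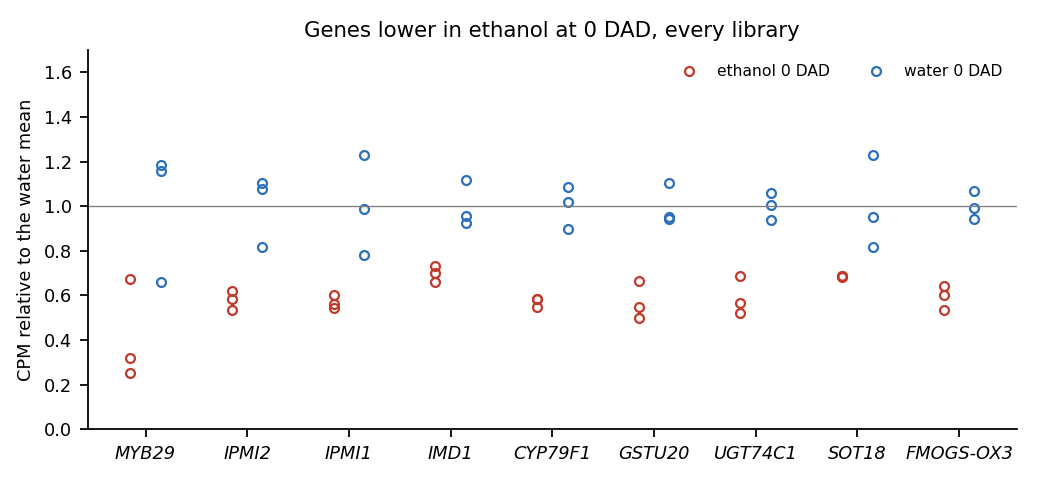
CPM of the 9 genes called at 0 DAD, divided by the mean of the 3 water libraries of that gene (vertical axis, from 0); each circle is 1 library, red is ethanol and blue is water. All red circles lie below 1, and only for MYB29 does a red circle reach the range of the blue ones.

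At 1 DAD the aliphatic difference was gone from the calls. No member was called at 1 DAD or at 5 DAD by edgeR's quasi-likelihood test, where 0% of all genes were called, or by DESeq2's Wald test. At an unadjusted p under 0.05, 1 member passed at 1 DAD, MYB29, with -0.67 (3.05% of all genes), and 1 at 5 DAD, MYB51, with 1.21 (4.07% of all genes). The aliphatic medians were -0.09 and -0.04 and the indole medians 0.06 and 0.07. The change of the ethanol difference between 0 and 1 DAD was positive in 26 of 26 aliphatic genes, with a median of 0.46, but 0 genes were called in it, against 0.0364% of all genes. It uses the same 0 DAD libraries in which the aliphatic median was already negative, so the 26 signs are not a separate result. At 3 DAD 1 gene was called, MYB51, against 0.992% of all genes, with 44.5, 43.7 and 16.0 CPM in ethanol 3 DAD libraries, against 11.0, 16.2 and 12.0 CPM in water 3 DAD libraries (1.40, SE 0.347, adjusted p = 0.0524). Ethanol replicate 3 lay within the range of the water libraries, and of the 6 fits that left out 1 library the call held in 1, that without this replicate.

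Other genes of the pathway were taken from lists of known function. Of 11 tested genes of glucosinolate breakdown, 6 were higher and 2 lower in ethanol than in water at 7 DAD, against 60.5% of all genes called (32% higher and 28.6% lower). BGLU30, a beta-glucosidase induced under sulfur shortage and in darkness, had 2.17, 1.23 and 1.47 CPM in ethanol 7 DAD libraries, against 37.3, 56.3 and 73.9 CPM in water 7 DAD libraries (-5.10, SE 0.760). NSP5, a nitrile-specifier protein, had 130.4, 150.0 and 147 CPM against 2576, 3315 and 3509 CPM (-4.46, SE 0.231). ESM1, which favours isothiocyanates over nitriles, had 481, 335 and 869 CPM against 37.4, 40.2 and 33.2 CPM (3.93, SE 0.245). The specifier NSP5 and the modifier ESM1 therefore differed in opposite directions, without overlap in either. Of 14 further synthesis and transport genes, 6 were higher and 4 lower, again against 60.5%. CYP81F1 and CYP81F3, indole ring hydroxylases like CYP81F2, differed in opposite directions (-3.37, SE 0.374, and 3.52, SE 0.614), and the transporter gene GTR3 was higher (3.37, SE 0.471).

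Of 8 further regulators, 5 were higher and 1 lower at 7 DAD, against 60.5% of all genes called. MYC2, a partner of the glucosinolate MYB factors and a jasmonate regulator, had 107, 62.8 and 142 CPM in ethanol 7 DAD libraries, against 23.9, 19.1 and 22.2 CPM in water 7 DAD libraries (2.25, SE 0.317). SDI1 and SDI2, sulfur-deficiency-induced repressors of aliphatic synthesis, were higher too (2.94, SE 0.540, and 2.29, SE 0.187). MYC3, a relative of MYC2, was at 5.05 to 7.58 CPM in ethanol 7 DAD libraries, against 6.38 to 9.60 CPM in water 7 DAD libraries, and was not called. Of 12 genes of sulfate activation and tryptophan synthesis, 7 were higher and 3 lower, against the same 60.5%. APR1, which reduces activated sulfate, had 104, 90.0 and 110 CPM against 18.0, 21.4 and 13.1 CPM (2.54, SE 0.160). The sulfate-activating APS3 was higher (1.53, SE 0.182), and APK3, a cytosolic relative of APK1 and APK2, was lower (-1.71, SE 0.343). At 0 DAD 2 of these 12 genes were called, against 1.71% of all genes, both lower in ethanol: APR1 (-0.70, adjusted p = 0.0292) and its relative APR3 (-1.17, adjusted p = 0.0282), both by edgeR.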

How the data were processed

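Per the labels and the study's methods, shoots of Arabidopsis thaliana Col-0 were collected in 10 groups of 3, and RNA was sequenced with a multiplexed, strand-specific protocol. The authors trimmed read 1 with Trimmomatic, aligned it to TAIR10 with HISAT2 and used featureCounts to count reads of each gene on the sense strand, over whole genes, with primary alignments, and with a read assigned to every gene that covers enough of it. The deposited table holds raw counts of 27417 genes in 30 libraries (3625884 to 14735127 counts), and 2628 genes had no count. A deposited table of normalised values was not used here.

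The members and all gene lists were chosen with earlier results of these data known. They were matched by locus identifier, and symbols were taken from the RefSeq table of TAIR10.1, which named 47 of 47 members by symbol or locus. Values were given for every library for members fixed by role, for any member called against its branch at 7 DAD and for any called between the arms at 0, 1, 3 or 5 DAD, and of each further list for up to 3 called genes with the largest fold changes at 7 DAD.

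Genes were filtered with filterByExpr (19249 kept, 99.95% of counts), scaled by TMM (factors 0.915 to 1.163) and fitted with edgeR 4.0.16 in R 4.3.3 (glmQLFit, glmQLFTest) over all 10 groups with 20 residual degrees of freedom. A gene was called at a Benjamini-Hochberg adjusted p under 0.1 within each of 18 comparisons, the threshold the study used. CPM are counts relative to the TMM-scaled total, and branch means used log2 CPM with a prior count of 2. The SE is the fold change divided by the square root of the F statistic. The SE rests on the spread between libraries of the same group, pooled over the groups. It does not cover differences in library preparation between groups. Alternatives were library totals, DESeq2 size factors, DESeq2 1.42.0 with its Wald test, all genes with at least 1 count, the compared groups alone, a replicate block and each library left out. No column lay outside the sample map. Promoter windows were read from RefSeq TAIR10.1, whose coordinates are given only for those windows, since the count table holds none, and runs of 100 identical bases were counted between genes to find near-identical copies.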

Additional observations from a re-analysis of the deposited data

Results flagged for a closer look

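The response to drought differed between the arms at 7 DAD, and the difference itself (the change over 0 DAD in ethanol minus that in water, log2) was tested with edgeR's quasi-likelihood test. It was called for 38 of 46 genes, against 50.8% of all genes. Among regulators it was 2.59 for MYB28, 4.08 for MYB29, 3.86 for MYB76, 2.32 for MYB34 and 2.28 for MYB51. The value of MYB76 rests on few counts. They were 0, 1 and 2 in ethanol 0 DAD libraries and 6, 2 and 1 in water 7 DAD libraries. Among chain elongation genes the difference was 4.45 for BCAT4, 1.64 for BCAT3, 3.86 for BAT5, 3.59 for MAM1, 3.24 for MAM3, 0.89 for IIL1, 4.43 for IPMI2, 4.81 for IPMI1 and 4.11 for IMD1.

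Among aliphatic core genes the difference was 4.70 for CYP79F1, 4.64 for CYP79F2, 4.46 for CYP83A1, 4.66 for GSTF11, 4.49 for GSTU20, 2.81 for UGT74C1, 4.24 for SOT17 and 2.28 for SOT18. That of CYP79F2 rests on 3, 0 and 2 counts in water 7 DAD libraries. Among side chain genes the difference was 4.34 for FMOGS-OX1, 1.91 for FMOGS-OX3 and 4.06 for AOP2, and FMOGS-OX4 was the 1 called gene with a negative value, -2.72.

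In the indole branch it was 2.76 for CYP79B2, 3.16 for CYP79B3, 2.29 for CYP83B1, 0.86 for GSTF9, 1.00 for SOT16 and 3.40 for IGMT1. Among shared genes it was 1.03 for GGP1, 2.67 for SUR1, 2.45 for UGT74B1, 0.62 for GTR2, 1.78 for APK1 and 3.84 for APK2. All groups hold 3 libraries, too few to test a single library as an outlier.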

How the results depend on the processing

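Of the counts and medians given, 119 kept within 1.5 times or 1 spread under the alternatives that keep all libraries and 10 moved, and none reversed. With library totals in place of TMM, the median of all genes at 7 DAD moved to 0.263, beside 3.54 for the aliphatic and 1.96 for the indole branch, and 5 members were called in ethanol between 5 and 7 DAD. With all genes of at least 1 count, 2 members were called at 3 DAD. With the compared groups alone, 3 were called at 0 DAD, 2 at 3 DAD, 6 in ethanol 7 DAD against 5 DAD and 7 in ethanol 7 DAD against water 5 DAD. The indole median at 7 DAD was then 2.32, over fewer genes, since MYB122 and CYP81F2 did not pass the filter on low counts. The share of all genes called is not given for these fits or for those with a library left out. A change in these counts can therefore not be read as particular to the members. With only the deepest ethanol 0 DAD library, an alternative chosen after seeing the data, 1 member was called at 0 DAD.

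Leaving out 1 library gave 3 to 10 calls at 0 DAD, 0 to 1 at 3 DAD, 3 to 23 in ethanol 7 DAD against 5 DAD and 8 to 20 in ethanol 7 DAD against water 5 DAD, and indole medians of 1.63 to 1.99 at 7 DAD. Of the values of single genes, 20 lost and 1 gained a call under the other alternatives, and 40 lost and 1 gained one with a library left out. Among them, GTR1 was at -0.28 with library totals and GTR2 at 0.44 with the compared groups alone, neither called, and TGG1 was called at 0.43 with library totals.

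The replicate numbers did not pair the libraries: of 15 same-numbered pairs across the arms, 2 had a correlation of deviations over 0.1 (range -0.097 to 0.212), and 5 correlated best with their own number. With the number as a replicate block, 9 members were called at 0 DAD and 41 at 7 DAD, with medians of 3.33 and 1.76 for the 2 branches. Depth limits what can be said of AOP3, MYB122, MYB76, CYP79F2 and CYP81F2, which had few counts in some groups.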
